A study of Mus musculus with 18 samples.

Results

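The nuclear genome supplies most of the proteins of the mitochondrial respiratory chain, and the transcripts of these genes were measured in cultured mouse cortical neurons that overexpress a proteasome subunit. Members were chosen by symbol: the Ndufa, Ndufb, Ndufc, Ndufs and Ndufv families, Sdha to Sdhd, Uqcr, Cox4 to Cox8, Atp5, Cyc1 and Cycs, without the Ndufaf assembly factors, at a mean of 1 CPM or more over all libraries (CPM are counts scaled to a common library size). Of 98 symbols that fit the naming, 81 reached that level, out of 14324 gene IDs that did so in the whole table. They comprise 36 genes of complex I, 4 of complex II, 9 of complex III, 14 of complex IV, 17 of complex V (ATP synthase) and cytochrome c (Cycs). The level mattered little for the choice, since the lowest member, Ndufb2, had a mean of 6.93 CPM and the highest gene left out, Cox7a1, had 0.422 CPM.

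RNA was sequenced as poly(A)-enriched bulk libraries in 3 groups of 6, numbered 1 to 6 in each group. Cultures of the first group overexpressed Psmb5, which encodes β5, a proteolytic subunit of the standard proteasome. Those of the second overexpressed Psmb8, which encodes β5i, the subunit found in place of β5 in immunoproteasomes. Control cultures, labelled mSc, overexpressed mScarlet, a red fluorescent protein. All 3 groups were transduced with lentivirus on day 7 in vitro and harvested after 10 further days. The treatment tags and the design text name these constructs, whereas a protocol text gives Ifng for every sample, and the tags were followed. The sources used here do not give the promoter of the constructs, the strain and age of the mice or the meaning of a replicate number. The p-values therefore cover only the spread among these libraries, and that spread may be technical.

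Complex I takes electrons from NADH and complex II takes them from succinate. Both pass them through ubiquinone to complex III, from where the soluble carrier cytochrome c brings them to complex IV, which reduces oxygen. The proton gradient built on the way drives ATP synthase. Neurons rely heavily on this pathway to pay for ion pumping and synaptic transmission, and the complexes are assembled from nuclear-encoded subunits together with a few encoded by mitochondrial DNA.

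Library totals ranged from 15337511 to 21074229 counts, and the 81 members together took 0.678 to 0.818% of the counts of a library. Psmb5 stood at 452 ± 113 CPM in Psmb5 cultures, 48.3 ± 1.91 in Psmb8 cultures and 42.9 ± 1.49 in mSc cultures (SD, n = 6 each). Psmb8 stood at 887 ± 198 CPM in Psmb8 cultures, 5.03 ± 5.48 in Psmb5 cultures and 6.28 ± 7.76 in mSc cultures. Libraries numbered 2 had the lowest transgene levels, 238 CPM of Psmb5 and 546 CPM of Psmb8. All 10 neuronal markers were expressed, with a summed level of 4343 to 5512 CPM per library, and 1 of 9 microglial markers had enough counts to be tested. The 9 astrocyte markers summed to 4270 to 5081 CPM in the libraries numbered 1 of each group and to 1374 to 1967 CPM in the other 15.

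Promoter sequences were matched by symbol for 67 of the 81 members (RefSeq, GRCm38.p6, 250 bases before to 50 after the start). Shown are those of the 4 members with the smallest unadjusted p in Psmb8 against mSc among members with an entry, so that the letters of these promoters can be read beside their values. Capitals mark matches on either strand to the NRF1 motif (GCGCA, any base, GCGC), the cAMP response element (TGACGTCA) and the SP1 core (GGGCGG). The Cycs promoter lies at chr6:50566520-50566819 on the minus strand, that of Ndufa11 at chr17:56717512-56717811 on the plus strand, that of Ndufa8 at chr2:36049289-36049588 on the minus strand and that of Ndufa4 at chr6:11907401-11907700 on the minus strand.
Cycs: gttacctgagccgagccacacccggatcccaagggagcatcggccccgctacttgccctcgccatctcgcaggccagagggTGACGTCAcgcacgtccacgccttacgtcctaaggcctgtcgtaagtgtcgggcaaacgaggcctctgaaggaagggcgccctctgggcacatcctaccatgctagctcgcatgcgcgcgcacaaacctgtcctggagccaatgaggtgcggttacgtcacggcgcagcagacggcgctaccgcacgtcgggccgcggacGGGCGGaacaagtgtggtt
Ndufa11: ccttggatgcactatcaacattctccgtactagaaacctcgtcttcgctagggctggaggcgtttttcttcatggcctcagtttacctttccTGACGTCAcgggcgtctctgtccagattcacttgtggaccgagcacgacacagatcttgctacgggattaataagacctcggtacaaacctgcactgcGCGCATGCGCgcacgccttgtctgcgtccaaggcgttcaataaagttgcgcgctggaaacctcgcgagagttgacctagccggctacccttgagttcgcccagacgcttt
Ndufa8: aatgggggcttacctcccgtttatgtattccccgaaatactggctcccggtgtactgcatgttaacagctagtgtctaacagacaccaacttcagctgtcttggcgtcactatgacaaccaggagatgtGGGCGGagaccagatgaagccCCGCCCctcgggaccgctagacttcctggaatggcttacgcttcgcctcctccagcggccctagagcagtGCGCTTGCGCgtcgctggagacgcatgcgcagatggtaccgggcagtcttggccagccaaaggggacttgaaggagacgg
Ndufa4: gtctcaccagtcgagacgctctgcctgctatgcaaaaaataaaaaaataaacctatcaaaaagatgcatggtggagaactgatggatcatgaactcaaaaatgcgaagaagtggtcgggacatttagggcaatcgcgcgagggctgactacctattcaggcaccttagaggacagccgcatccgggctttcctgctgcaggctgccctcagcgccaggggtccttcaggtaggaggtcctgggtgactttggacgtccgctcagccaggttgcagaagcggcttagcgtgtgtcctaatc
The NRF1 letters were found in 18 of the 72 member promoters (25%), against 9% of 14660 promoters of tested genes and 4.6% of all 32851 promoters in the table. The YY1 letters AAGATGGC were found in 13.9% of member promoters, 3.97% of those of tested genes and 2.75% of all. The cAMP response element was found in 6.94%, 2.95% and 1.79%, the ETS family letters CCGGAAG in 22.2%, 15.6% and 8.86%, and the ERR letters TCAAGGTCA in 2.78%, 0.28% and 0.423%, in the same order. SP1 letters were found in 41.7% of member promoters, 61% of those of tested genes and 35.7% of all. The 17 member genes with NRF1 letters had a median log2 fold change of Psmb8 over mSc of 0.064, against 0.048 for the other members with a promoter entry. With and without the letters, the medians were 0.062 and 0.047 for YY1 and 0.132 and 0.050 for the cAMP response element (5 genes with it). They were 0.051 and 0.051 for ERR (2 genes with it), and lower with the letters for ETS (0.039 and 0.054) and SP1 (0.043 and 0.054). A match is a description of the letters in the window, not of a bound site.

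Levels of the members differed widely per length, expressed as CPM per kb of the annotated principal transcript. In mSc cultures the median was 46.9 CPM per kb over complex I, 68.7 over complex II, 74.3 over complex III, 128 over complex IV and 80.96 over complex V, and 60.8 over all 81 members. Cox6a1, the liver-type subunit VIa that most tissues use, was the highest member at 704 ± 48.6 CPM per kb in mSc cultures (SD, n = 6), followed by Cox8a at 528 ± 36.5. Atp5b, the catalytic β subunit of ATP synthase, stood at 357 ± 20.7 and Cox4i1 at 353 ± 35.6 CPM per kb, which did not differ beyond their spread. Cycs was among the lowest members per length at 13.1 ± 1.15 CPM per kb. Below it came only Atp5s, which is not a structural subunit, at 7.80 ± 1.16, and Ndufb2 at 1.49 ± 0.234 CPM per kb. The highest and lowest genes were Ndufb9 (122 CPM per kb) and Ndufb2 in complex I, Sdha (93.3) and Sdhc (24) in complex II, Uqcr11 (142) and Uqcrb (45.1) in complex III, Cox6a1 and Cox6b2 in complex IV and Atp5b and Atp5s in complex V. The annotated principal transcripts of Ndufb2 and Cycs are 4371 and 3123 bases long, so their levels per length rest on those models. In CPM, not divided by length, Cycs stood at 40.96 ± 3.58 in mSc cultures, above Uqcrb at 24.1 ± 0.963.

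**Figure D1:**
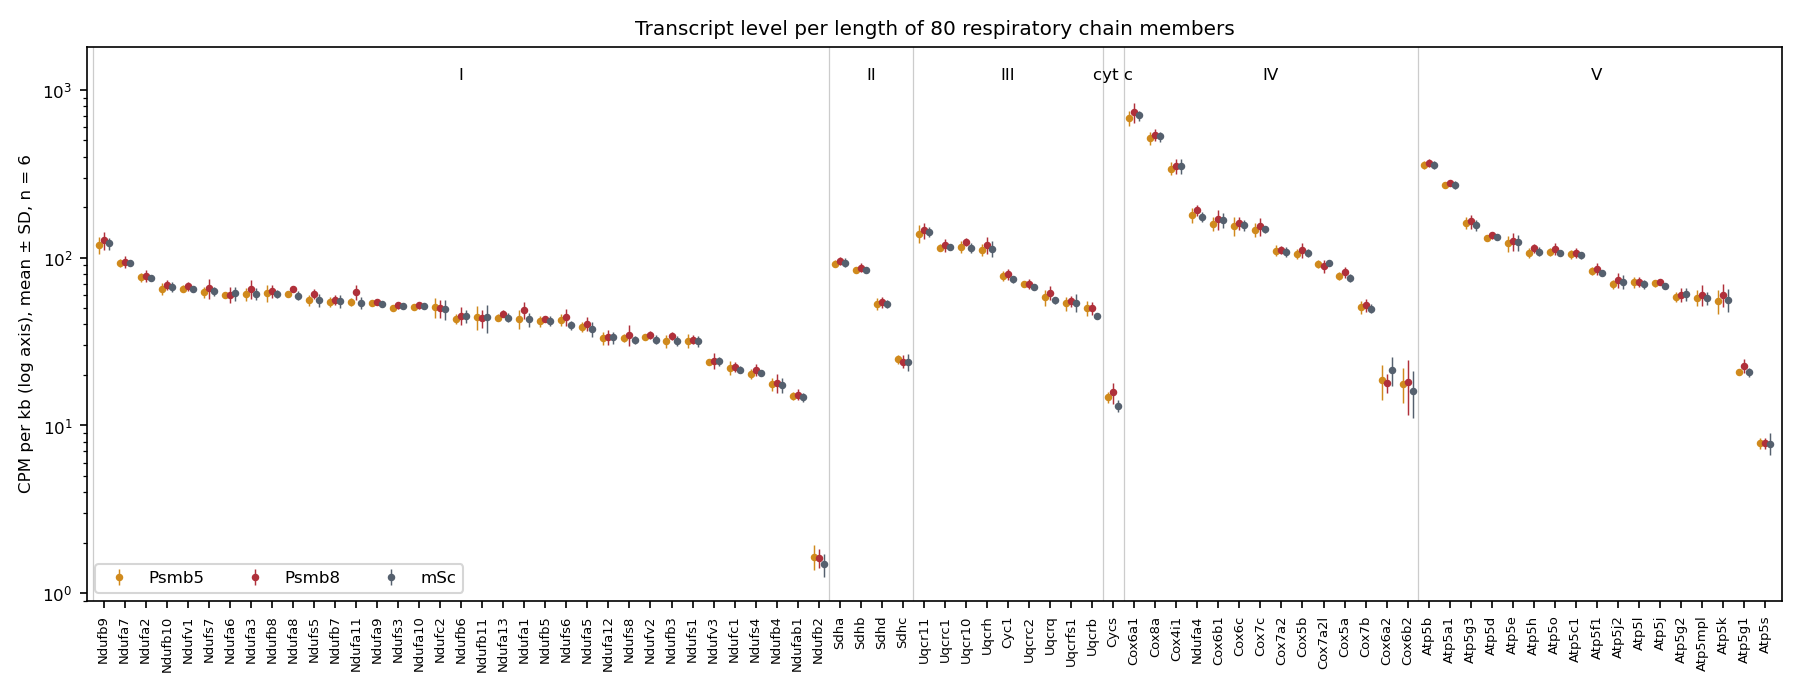
Mean CPM per kb of the principal transcript (log axis, bars are SD, n = 6) of 80 members in Psmb5, Psmb8 and mSc cultures, grouped by complex and ordered by the mSc level. The 3 groups lie on top of each other for nearly every member, while members range from 1.49 (Ndufb2) to 704 CPM per kb (Cox6a1) in mSc cultures.

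Of the tissue-type isoforms, the widely expressed ones were the higher. Cox4i1 stood at 260 ± 23.0 CPM in Psmb5, 268 ± 27.5 in Psmb8 and 270.0 ± 27.3 in mSc cultures (SD, n = 6 each), while its hypoxia-associated partner Cox4i2 had at most 6 counts in any library. The muscle and heart isoforms Cox7a1 and Cox8b had at most 13 and 1 counts in a library, and the testis isoform Cox8c at most 1. Ndufa4l2, the hypoxia-induced relative of Ndufa4, had at most 8 counts. Cox6a2, the heart and muscle-type subunit VIa, was measurable at 18.6 ± 4.35 CPM per kb in Psmb5, 17.8 ± 2.30 in Psmb8 and 21.4 ± 4.23 in mSc cultures. Cox6b2, known as a testis isoform, stood at 17.7 ± 4.19, 18.1 ± 6.59 and 16.1 ± 5.06 CPM per kb in Psmb5, Psmb8 and mSc cultures, against 160 ± 16.0, 169 ± 23.8 and 167 ± 17.2 for the common isoform Cox6b1. Subunit c of ATP synthase, the ring that turns with proton flow, is made from 3 genes with one mature protein. Atp5g3 was the highest of them at 156 ± 11.4 CPM per kb in mSc cultures, above Atp5g2 at 60.6 ± 5.12 and Atp5g1 at 20.8 ± 1.26. The place of Atp5g1 rests on its annotated principal transcript of 4715 bases, against 731 for Atp5g2 and 723 for Atp5g3. In CPM, not divided by length, Atp5g3 stood at 113 ± 8.25, Atp5g1 at 98.1 ± 5.92 and Atp5g2 at 44.3 ± 3.75 in mSc cultures.

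Psmb8 was set against mSc to see how neurons respond to the immunoproteasome subunit. The members were slightly higher in Psmb8 cultures, by a few percent, and none passed the test on its own. In log2 CPM averaged over all 81 members, the Psmb8 library lay above the mSc library of the same number by 0.127, 0.078, 0.013, 0.017, 0.034 and 0.066 in numbers 1 to 6. All 6 differences were positive, with numbers 1, 2 and 6 the largest, and the mean was 0.056 ± 0.044 (SD over 6 pairs), or 3.94%. The summed level of the members was 8263, 7736, 7205, 7603, 7337 and 7168 CPM in Psmb8 libraries 1 to 6, against 7658, 7325, 7141, 7633, 7120 and 6931 CPM in mSc libraries 1 to 6, so the groups overlapped and number 4 lay below its mSc partner.

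Over all 15671 genes tested, 0 of 81 members were called higher or lower at an adjusted p under 0.05 (edgeR's quasi-likelihood test with the replicate number as a block, Benjamini-Hochberg adjustment), where 0.115% of all genes tested were called higher and 0.211% lower. At an unadjusted p under 0.05, 17 of 81 members (21%) were higher, against 5.44% of all genes tested, and 1 member, Cox6a2, was lower, against 5.25%. DESeq2 called 1 member higher, Cycs, and limma-voom called 0. A positive log2 fold change was found for 74 of 81 members, against 50.4% of all genes tested. The median log2 fold change was 0.049 over the members and 0.001 over all genes tested. Higher in all 6 same-numbered pairs were 11 members, against 3.17% of all genes tested: Atp5g1, Atp5h, Atp5o, Cyc1, Ndufa11, Ndufa4, Ndufab1, Ndufb3, Ndufs5, Ndufv2 and Uqcrq. No member was lower in all 6 pairs, against 2.5% of all genes tested, and for 0 members did the 6 Psmb8 and 6 mSc libraries stand apart without overlap, against 0.0702% of all genes tested for higher and 0.051% for lower. The members vary together over libraries, so their counts are not independent. Standard errors of the members ranged from 0.030 to 0.129 on the log2 scale, with a median of 0.043. In bulk RNA, fewer cells of a type and less RNA per cell cannot be told apart. In number 1, where the difference was largest, the astrocyte markers summed to 4293 CPM in the Psmb8 library and 5081 CPM in the mSc library, and the neuronal markers to 4997 and 5028 CPM. Over the groups the astrocyte sums ranged from 1461 to 4293 CPM in Psmb8 and from 1374 to 5081 CPM in mSc cultures, and the neuronal sums from 4448 to 5512 and from 4343 to 5199 CPM. Of the 9 astrocyte markers 2 lay above 0 in Psmb8 against mSc (median log2 fold change -0.076), of 10 neuronal markers 8 (0.037), of 8 oligodendrocyte lineage markers 0 (-0.082), of 6 cycling cell markers 4 (0.092) and of 4 vascular and fibroblast markers 3 (0.073), while the endothelial marker Cldn5 had 0 counts. Their part in the result was not tested. Without number 1 the median over the members was 0.034, and without numbers 1 and 2 it was 0.033.

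**Figure D2:**
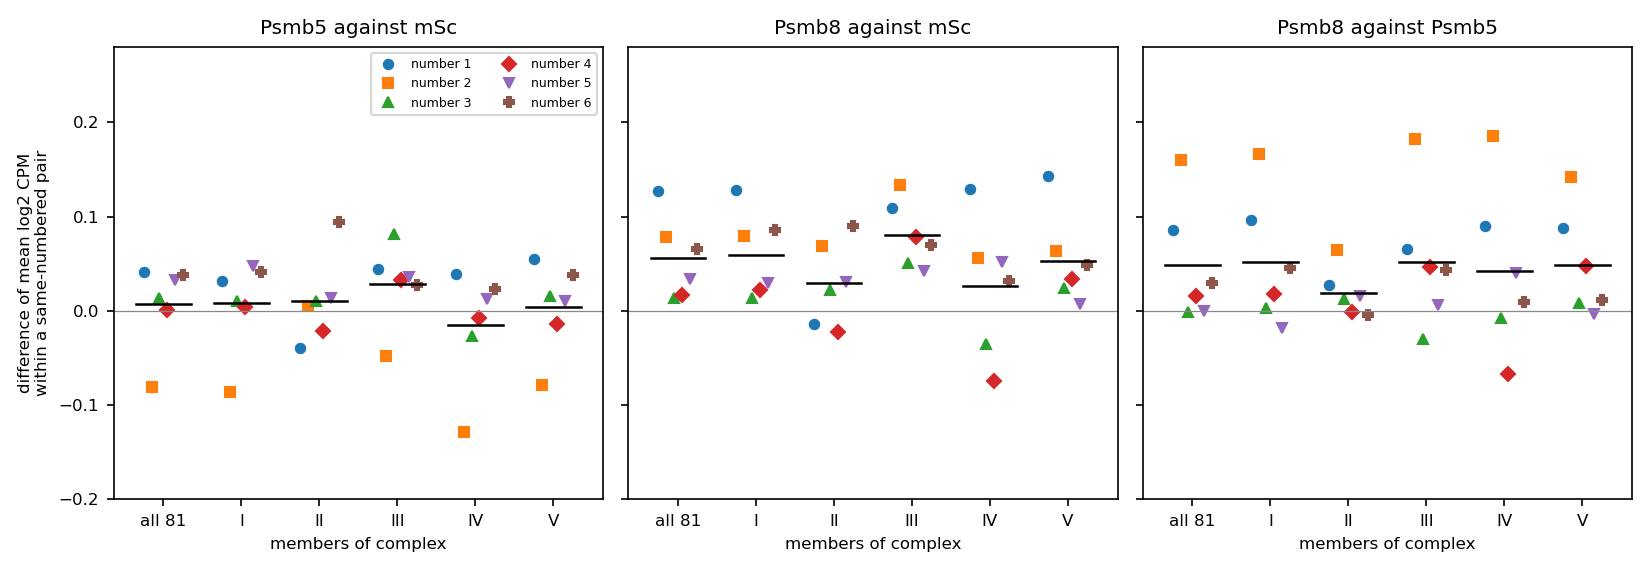
Difference of the mean log2 CPM of the members within each same-numbered pair of libraries (coloured points; the bar is the mean of 6), over all 81 members and by complex, for the 3 comparisons. In Psmb8 against mSc all 6 points of the whole list lie above 0 (0.013 to 0.127), in Psmb5 against mSc they lie on both sides (-0.081 to 0.041), and number 2 gives the highest points in Psmb8 against Psmb5 (0.160 over all members).

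Among the electron carriers between complexes, cytochrome c (Cycs), which also triggers caspase activation when it leaves mitochondria, showed the largest positive difference of any member. Cycs stood at 54.1, 43.5, 45.3, 61.2, 47.1 and 43.5 CPM in Psmb8 libraries 1 to 6, against 37.2, 39.4, 42.9, 45.7, 37.1 and 43.5 CPM in mSc libraries 1 to 6. Libraries 1, 4 and 5 carried most of the difference, number 6 was level, and the groups overlapped. The log2 fold change was 0.25 (SE 0.06, adjusted p = 0.073 by edgeR), or 19.3%, higher in 5 of 6 pairs. The call depended on the test. Cycs passed with DESeq2 (adjusted p = 0.018) and with edgeR without a low-count filter (adjusted p = 0.00078), and the adjusted p ranged from 0.00078 to 1 over the 18 alternatives. Cycs (ENSMUSG00000063694) lies on chromosome 6 at 50562563 to 50566538, minus strand, with 3 exons in its principal transcript (GRCm38).

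Complex I gave the next largest values, all of them in accessory subunits, which surround the catalytic core. Ndufa11 stood at 39.3, 35.4, 29.5, 34.7, 34.9 and 30.3 CPM in Psmb8 libraries 1 to 6, against 31.0, 32.0, 28.1, 30.9, 27.1 and 26.7 CPM in mSc libraries. It was higher in 6 of 6 pairs, with a fold change of 0.21 in log2 units (SE 0.06, adjusted p = 0.14 by edgeR). Of its principal exonic bases, 12.8% overlap Vmac on the opposite strand, and the strand setting of the counting is not given. Ndufa1, an X-linked small membrane subunit, stood at 22.5, 18.6, 18.9, 23.8, 18.03 and 20.6 CPM in Psmb8 libraries 1 to 6, against 18.6, 17.2, 19.2, 20.4, 15.8 and 16.6 CPM in mSc libraries. Number 3 lay below its partner and the other 5 above, with a fold change of 0.18 in log2 units (SE 0.06, adjusted p = 0.22). Ndufa8, a subunit of the membrane arm, averaged 56.2 ± 1.95 CPM in Psmb8 and 51.2 ± 3.26 CPM in mSc cultures, a fold change of 0.14 in log2 units (SE 0.04, adjusted p = 0.21). At an unadjusted p under 0.05, 7 of the 36 complex I genes were higher (5.44% of all genes tested), Ndufs6, Ndufs5, Ndufb3 and Ndufv2 among them. Ndufv2 was the only one of these that belongs to the core, where it holds an iron-sulfur cluster beside the NADH-oxidising flavoprotein. The 4 quinone-reducing core subunits had a median of 0.030. The smallest value in complex I was -0.03 (SE 0.06) for Ndufa6.

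Complex II, which also belongs to the citric acid cycle, had the lowest median of the complexes, 0.034. Its 4 genes had log2 fold changes between 0.005 (Sdhc, a membrane anchor, SE 0.04) and 0.04 (Sdhb, the iron-sulfur subunit, SE 0.04). None reached an unadjusted p under 0.05, where 5.44% of all genes tested were higher and 5.25% lower. Sdha, the succinate-oxidising flavoprotein, averaged 278 ± 14.6 CPM in Psmb8 and 271 ± 16.8 CPM in mSc cultures, with a fold change of 0.04 in log2 units (SE 0.03, adjusted p = 0.73 by edgeR).

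Complex III had the highest median of the complexes, 0.068, and the smallest spread over pairs (SD 0.0347). The mean over its 9 members was higher in 6 of 6 pairs, by 0.109, 0.133, 0.051, 0.078, 0.042 and 0.070 in numbers 1 to 6, or 5.74% on average. All 9 members had positive log2 fold changes (50.4% of all genes tested), and 4 were higher at an unadjusted p under 0.05 (5.44%). Uqcrq, a small subunit of the membrane part, stood at 100.4, 91.3, 90.7, 107.6, 82.4 and 93.2 CPM in Psmb8 libraries 1 to 6, against 87.9, 79.8, 85.1, 90.7, 81.2 and 86.2 CPM in mSc libraries. Every Psmb8 library lay above its partner, and the ranges of the groups overlapped, with a fold change of 0.14 in log2 units (SE 0.04, adjusted p = 0.17 by edgeR). Uqcrb, another small subunit, averaged 26.8 ± 2.30 CPM in Psmb8 and 24.1 ± 0.963 CPM in mSc cultures, a fold change of 0.15 in log2 units (SE 0.06, adjusted p = 0.35). Cyc1, the cytochrome c1 that hands electrons to cytochrome c, stood at 129, 126, 111, 120, 131 and 109 CPM in Psmb8 libraries 1 to 6, against 110, 121, 109, 115, 118 and 106 CPM in mSc libraries. It was higher in 6 of 6 pairs by a smaller amount, 0.10 on the log2 scale (SE 0.04, adjusted p = 0.35). The smallest value was 0.03 (SE 0.04) for Uqcrfs1, the Rieske iron-sulfur protein.

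Complex IV had the largest spread over pairs (SD 0.0723) and held both the lowest member and Ndufa4. Its mean was higher in 4 of 6 pairs, by 0.129, 0.056, -0.035, -0.075, 0.052 and 0.032 in numbers 1 to 6. Ndufa4, once counted with complex I and now with complex IV, averaged 117 ± 8.44 CPM in Psmb8 and 107 ± 7.47 CPM in mSc cultures, higher in 6 of 6 pairs, with a fold change of 0.13 in log2 units (SE 0.04, adjusted p = 0.20 by edgeR). Cox6b2 was at 0.16, but with an SE of 0.13. Cox6a2 stood at 9.83, 14.0, 11.7, 12.1, 13.7 and 11.4 CPM in Psmb8 libraries 1 to 6, against 10.2, 17.4, 16.4, 11.8, 16.2 and 15.3 CPM in mSc libraries. It was lower in all pairs but number 4, and the groups overlapped, with a fold change of -0.26 in log2 units (SE 0.09, adjusted p = 0.25). Of its exonic bases, 10.3% overlap Itgad on the opposite strand. Cox7a2l, a factor that joins complexes III and IV into supercomplexes and is not a structural subunit of either alone, was at -0.06 (SE 0.04, adjusted p = 0.58), lower in 5 of 6 pairs.

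ATP synthase lay above mSc in 6 of 6 pairs, by 0.143, 0.063, 0.024, 0.034, 0.007 and 0.049 in numbers 1 to 6. Of its 17 genes 16 had positive log2 fold changes (50.4% of all genes tested), and 3 were higher at an unadjusted p under 0.05 (5.44%). Atp5g1, one of the 3 subunit c genes, stood at 113, 118, 99.2, 114.0, 106 and 91.9 CPM in Psmb8 libraries 1 to 6, against 94.4, 104, 96.6, 101, 103 and 88.9 CPM in mSc libraries. It was higher in 6 of 6 pairs, with a fold change of 0.12 in log2 units (SE 0.04, adjusted p = 0.21 by edgeR). Its partner genes differed in value: Atp5g3 was at 0.07 (SE 0.04) and Atp5g2 at -0.02 (SE 0.04), the smallest of the complex. The 4 genes of the peripheral stalk, which keeps the head from turning, had a median of 0.077, and Atp5a1 and Atp5b of the catalytic head were at 0.03 and 0.04 (SE 0.03 each). Atp5k, subunit e of the membrane part, was at 0.10 (SE 0.07, adjusted p = 0.66).

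**Figure D3:**
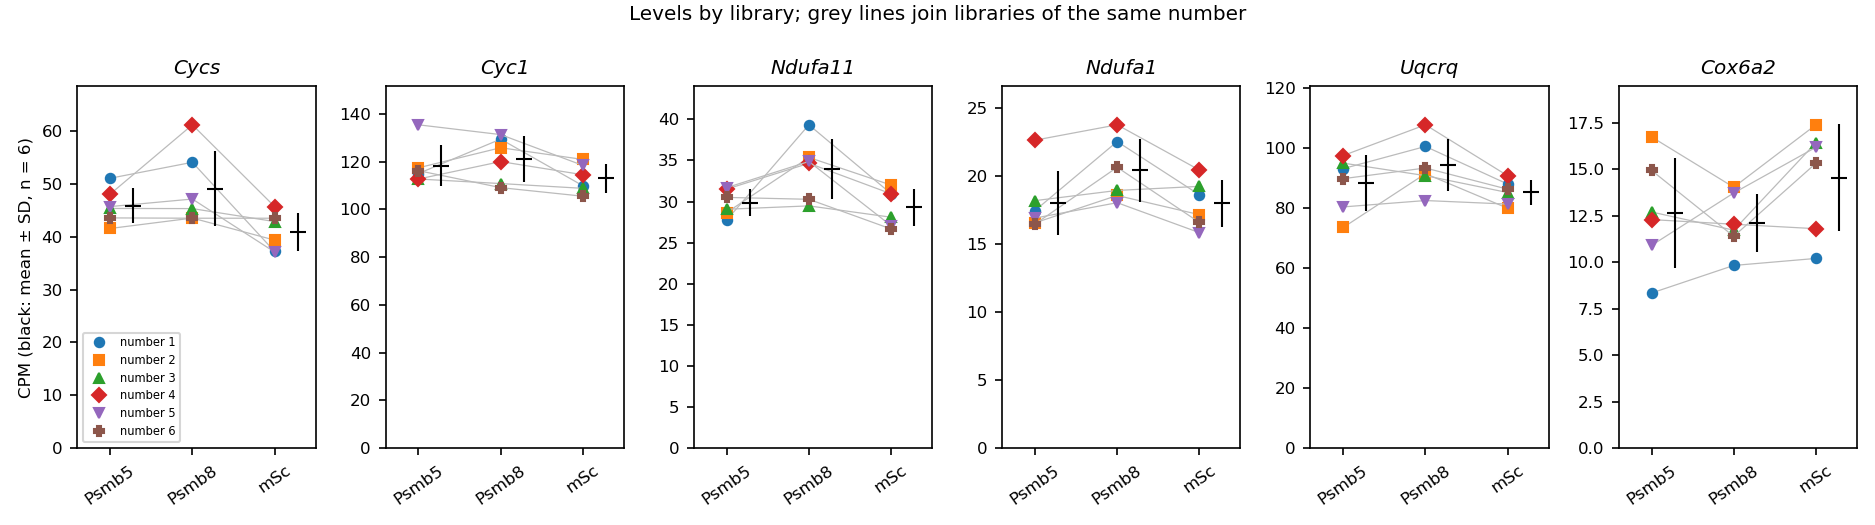
CPM by library for 6 members in Psmb5, Psmb8 and mSc cultures, with lines joining libraries of the same number and the mean ± SD (n = 6) in black. Ndufa11 and Uqcrq lie above their mSc partner in all 6 Psmb8 libraries, Cycs is level with it in number 6 (43.5 CPM in both), and Cox6a2 lies lower in all Psmb8 libraries but number 4.

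Psmb5 was set against mSc to see the same for the constitutive subunit. The mean over the members lay close to that of mSc, and no member passed the test. In log2 CPM averaged over all members, the Psmb5 minus mSc differences were 0.041, -0.081, 0.014, 0.001, 0.033 and 0.038 in numbers 1 to 6. Only number 2 lay below, and the mean of 0.0075 ± 0.0463 (SD over 6 pairs) was smaller than the spread. By edgeR with the replicate block 0 of 81 members were called higher, where 0.00638% of all genes tested were called, and 0 were called lower, where 0% were. At an unadjusted p under 0.05, 2 members, Cycs and Uqcrb, were higher (3.4% of all genes tested) and 1, Cox6a2, was lower (3.47%). DESeq2 and limma-voom called 0 members. A positive log2 fold change was found for 42 of 81 members, against 51% of all genes tested, and the median was 0.003 over the members and 0.002 over all genes tested.

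Cycs was the 1 member that was higher in all 6 pairs of Psmb5 and mSc libraries, against 2.04% of all genes tested, and 0 members were lower in all 6, against 2.2%. In 0 members did the groups not overlap (0.0255% of all genes tested higher, 0.00638% lower). Cycs stood at 51.1, 41.6, 45.4, 48.1, 45.7 and 43.6 CPM in Psmb5 libraries 1 to 6, against 37.2, 39.4, 42.9, 45.7, 37.1 and 43.5 CPM in mSc libraries. Numbers 1 and 5 held the largest differences, number 6 was level, and the log2 fold change was 0.16 (SE 0.06, adjusted p = 0.62 by edgeR). With DESeq2's size factors, and without a low-count filter, 0 members were higher in all 6 pairs. Uqcrb was at 0.14 (SE 0.06, adjusted p = 0.65), higher in 4 of 6 pairs. Cox6a2 was at -0.21 (SE 0.09, adjusted p = 0.65), lower in 5 of 6 pairs, at 8.35, 16.8, 12.7, 12.3, 10.9 and 14.95 CPM in Psmb5 libraries 1 to 6. Psmb5 and Psmb8 cultures were set against the same mSc libraries, so the values of Cycs, Uqcrb and Cox6a2 in both comparisons share them. Among the other members with the largest values were Ndufb2 at 0.15 (SE 0.12), Cox6b2 at 0.15 (SE 0.13) and Ndufs6 at 0.11 (SE 0.07), all within 2 SE. Cyc1 was at 0.06 and Uqcrc2, a core protein of complex III, at 0.07 (SE 0.04 each). In complex V, Atp5j and Atp5g3 were both at 0.05 (SE 0.04), and Cox5a was at 0.04 (SE 0.05). The smallest values in complexes II, III and V were -0.02 (SE 0.03) for Sdha, -0.03 (SE 0.05) for Uqcr11 and -0.05 (SE 0.04) for Atp5g2. In complex II, Sdhc was at 0.05 (SE 0.04) and Sdhb at 0.005 (SE 0.04).

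**Figure D4:**
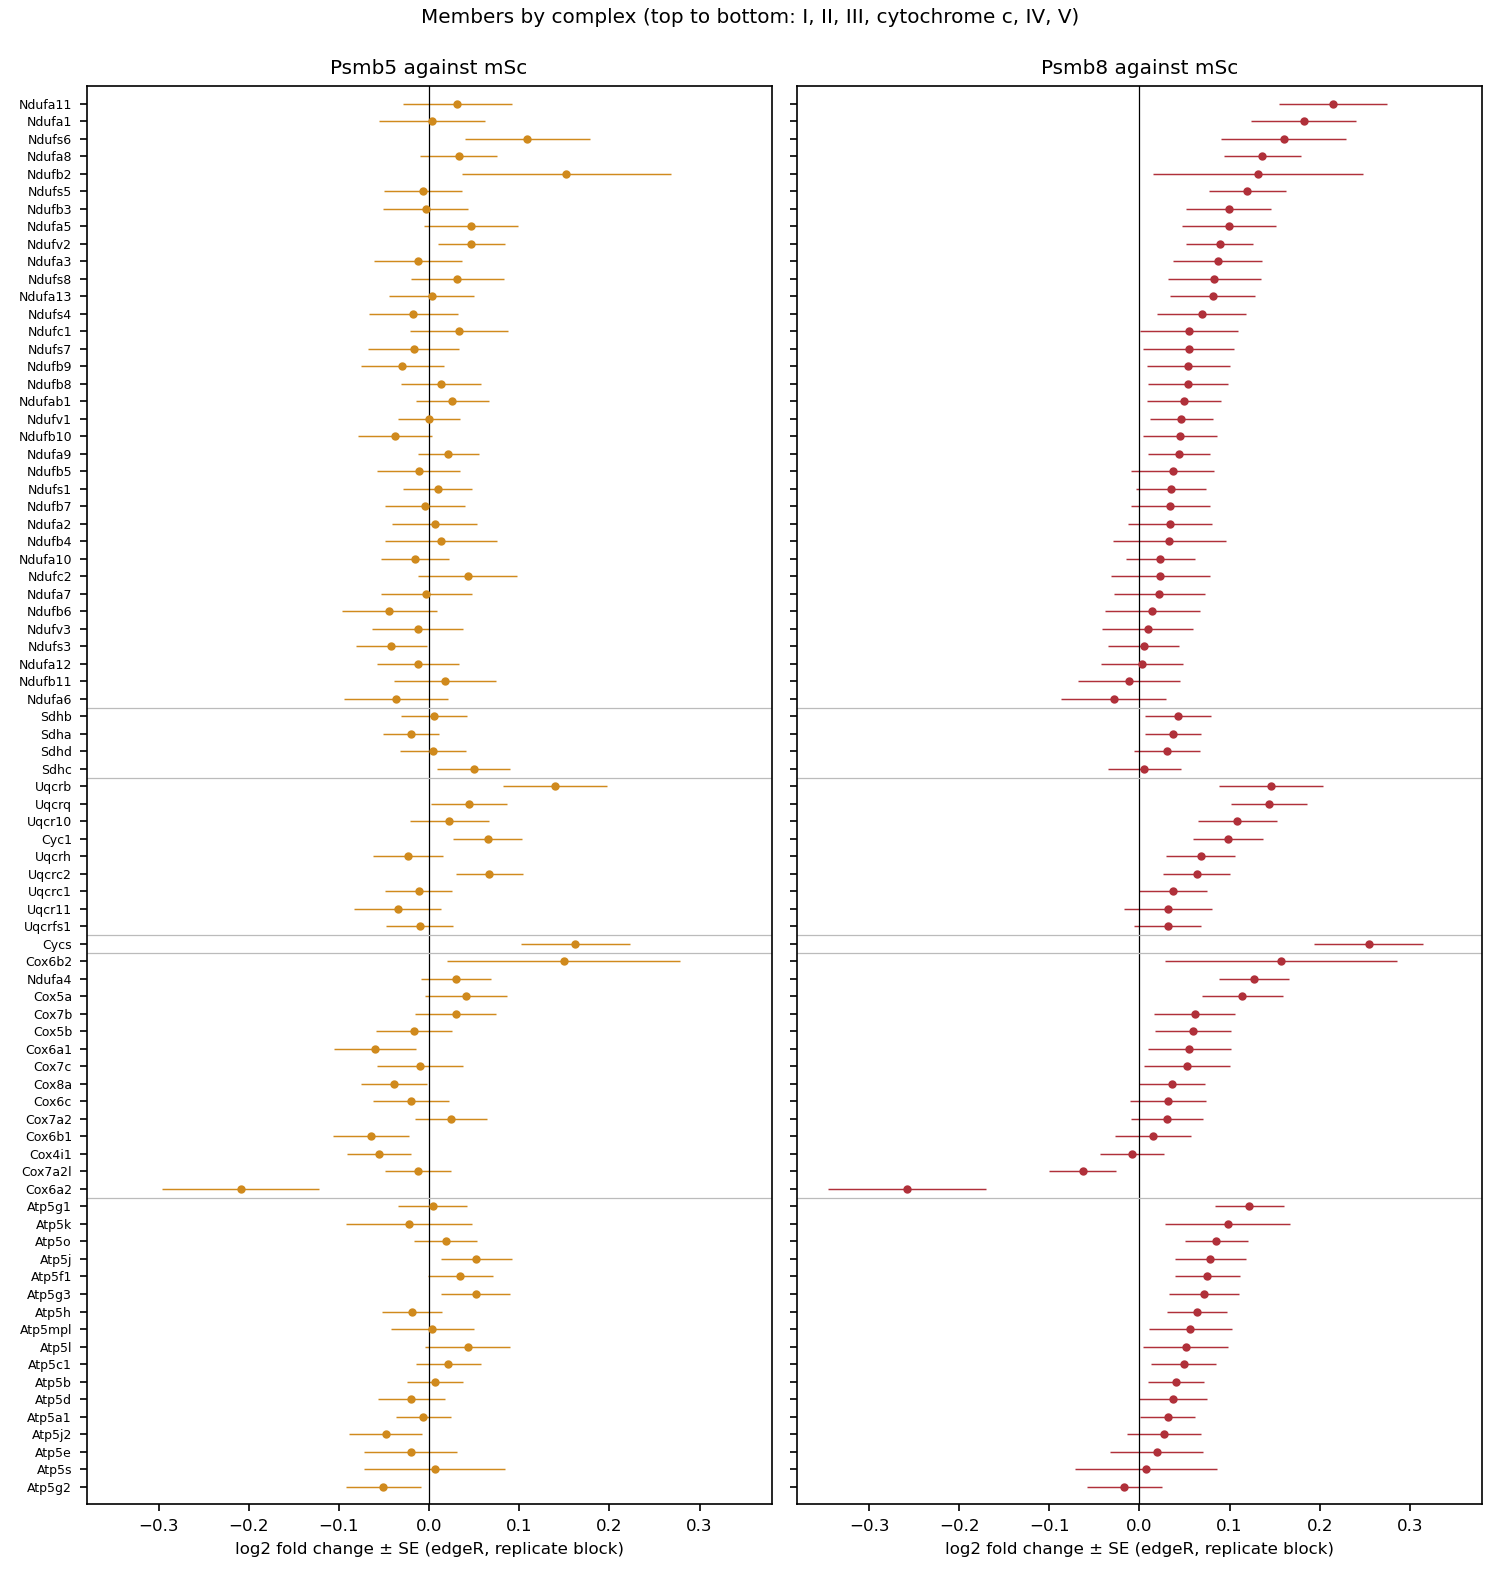
Log2 fold change ± SE (edgeR, replicate number as a block) of 80 members in Psmb5 against mSc (left) and Psmb8 against mSc (right), ordered within each complex by the right panel. On the right 74 of 80 points lie above 0 and on the left 42, Cycs is the highest point on the right (0.25) and Cox6a2 the lowest in both (-0.21 and -0.26), and no point passed the adjusted threshold.

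Set directly against each other, Psmb8 cultures had slightly higher members than Psmb5 cultures, a difference that rested largely on number 2. The mean over all members differed by 0.086, 0.160, -0.001, 0.016, 0.000 and 0.029 in numbers 1 to 6, with a mean of 0.048 ± 0.063 (SD over 6 pairs). In edgeR's fit 0 of 81 members were called higher (0.0128% of all genes tested) or lower (0.0255%), DESeq2 and limma-voom called 0, and the median log2 fold change was 0.046 over the members and -0.0001 over all genes tested. A positive value was found for 74 of 81 members, against 49.9% of all genes tested, and in 0 members did the groups not overlap (0.0447% higher and 0.0447% lower over all genes tested). The median was 0.025 without number 2 and 0.014 without numbers 1 and 2. At an unadjusted p under 0.05, 11 members were higher (3.73% of all genes tested) and 0 lower (3.91%), 0 were lower in all 6 pairs (2.23%), and 7 were higher in all 6 (2.3%): Atp5h, Cox6a1, Ndufa1, Ndufb10, Ndufb3, Ndufs5 and Sdha. Ndufa11 was at 0.18 (SE 0.06, adjusted p = 0.41 by edgeR) and Ndufa1 at 0.18 (SE 0.06, adjusted p = 0.40). Ndufs5 was at 0.13 (SE 0.04, adjusted p = 0.43), Atp5g1 at 0.12 (SE 0.04, adjusted p = 0.40) and Cox6a1 at 0.12 (SE 0.05, adjusted p = 0.56). Uqcrq was at 0.10 (SE 0.04), Ndufa4 at 0.10 (SE 0.04), Uqcrh, the acidic hinge protein of complex III, at 0.09 (SE 0.04) and Atp5k at 0.12 (SE 0.07). Cycs was at 0.09 (SE 0.06, adjusted p = 0.78), higher in 4 of 6 pairs, and Cyc1 at 0.03 (SE 0.04). Above 0 in this comparison were 0 of 9 astrocyte markers (median -0.134), 0 of 8 oligodendrocyte lineage markers (-0.097), 0 of 6 cycling cell markers (-0.153), 1 of 4 vascular and fibroblast markers (-0.071) and 5 of 10 neuronal markers (0.002). Their part in the result was not tested. Uqcrc2, at -0.003 (SE 0.04), and Atp5s, at 0.001, were lowest in complexes III and V. The lowest values were -0.05 (SE 0.04) for Cox7a2l, -0.05 (SE 0.09) for Cox6a2, -0.04 (SE 0.04) for Sdhc and -0.03 (SE 0.06) for Ndufb11.

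Between replicate numbers many members differed. Of them, 57 of 81 passed the test (edgeR's quasi-likelihood test with group in the model, Benjamini-Hochberg adjusted p under 0.05), against 64.3% of all genes tested. By complex these were 20 of 36 in complex I, 3 of 4 in II, 7 of 9 in III, 13 of 14 in IV and 13 of 17 in V, and Cycs. Libraries numbered 1, those with the highest astrocyte markers, had the highest mean of 50 members, and libraries numbered 6 the lowest mean of 44. The highest number exceeded the lowest by a median factor of 1.19 over the members (1.04 to 1.90), against 1.31 over genes at 1 CPM or more. Atp5b, for example, averaged 721, 691, 669, 751, 662 and 658 CPM in numbers 1 to 6 (adjusted p = 0.0032). Cox6a2 ran the other way in number 1, with 9.46, 16.1, 13.6, 12.1, 13.6 and 13.9 CPM in numbers 1 to 6 (adjusted p = 0.00078), and Cox6b2 had the widest range, from 13.3 CPM in number 2 to 7.00 CPM in number 4. The part of cell makeup in these differences was not tested.

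**Figure D5:**
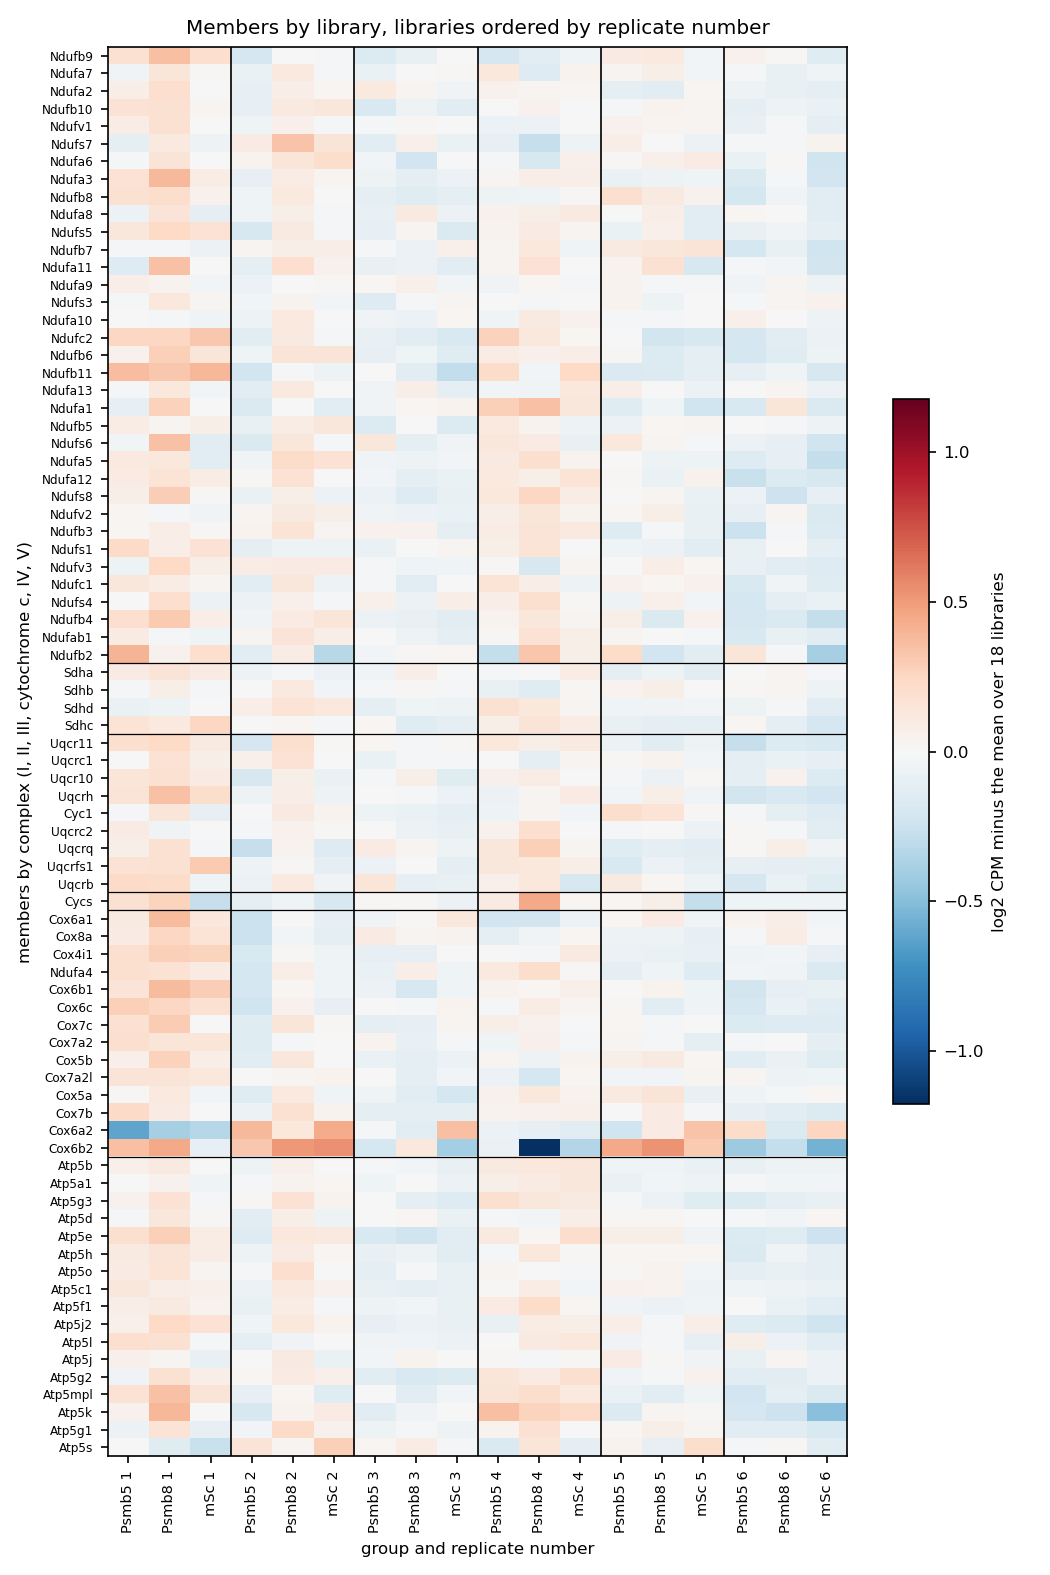
Log2 CPM of each of 80 members minus its mean over the 18 libraries, with libraries ordered by replicate number (Psmb5, Psmb8 and mSc within each) and members by complex. Libraries numbered 1 are high and those numbered 6 low over most members, and Cox6a2 and Cox6b2 stand out with the widest range.

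After the group means were taken off, the 80 members at 10 CPM or more tended to vary together over the 18 libraries. The median Pearson correlation between pairs of members was 0.420, against 0.005 between pairs of all 10057 genes at that level. Within complexes it was 0.398 in I, -0.097 in II, 0.421 in III, 0.509 in IV and 0.572 in V. The libraries share culture makeup, depth and replicate numbers, so these are descriptions of the 18 libraries, and genes are not independent replicates. The genes most like Cycs among 10056 others at 10 CPM or more were Cse1l (r = 0.863), Twf1 (0.854), Kpna4 (0.837), Psat1 (0.832) and Eif4g2 (0.825), over 18 libraries, none of them a member.

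Other mitochondrial genes were taken from lists by function, and no member of any list was called in any comparison by edgeR over all genes. The 13 subunits encoded by mitochondrial DNA join the nuclear-encoded ones in complexes I, III, IV and V. In Psmb8 against mSc, 13 of 13 had log2 fold changes below 0, while 50.4% of all genes tested lay above 0. Their median was -0.064, and 3 were lower at an unadjusted p under 0.05, where 5.25% of all genes tested were. The pairs were not uniform. The summed level of the 13 was higher in Psmb8 than in mSc in number 5 (36110 against 29970 CPM) and number 6 (25770 against 23160 CPM). In Psmb5 against mSc, 11 of 13 lay below 0, while 51% of all genes tested lay above 0. The median was -0.058, and 3 were lower at that p, where 3.47% of all genes tested were. Their summed level was higher in number 5, at 36920 CPM in Psmb5 and 29970 CPM in mSc. Both comparisons share the mSc libraries. In Psmb8 against Psmb5 the median was 0.004. mt-Nd3 was at -0.15 (SE 0.05, adjusted p = 0.28) in Psmb8 against mSc, lower in 6 of 6 pairs, and at -0.19 (SE 0.05, adjusted p = 0.53) in Psmb5 against mSc. In Psmb8 against mSc cultures the median was 0.030 over 47 assembly factors, 0.054 over 17 citric acid cycle genes, 0.029 over 76 mitochondrial ribosomal proteins, 0.026 over 29 import genes, 0.020 over 18 regulators of mitochondrial gene expression, 0.077 over 6 adenine nucleotide and phosphate carriers and channels, and 0.064 over 6 cristae-organising genes. The smallest p of each list belonged to Sdhaf1, an assembly factor of complex II, at 0.34 (SE 0.13, adjusted p = 0.33), Idh3a at 0.09 (SE 0.03, adjusted p = 0.29), Mrps18a at -0.16 (SE 0.05, adjusted p = 0.17), Tomm34 at -0.17 (SE 0.05, adjusted p = 0.17), Gabpb1 at -0.14 (SE 0.07, adjusted p = 0.46), the channel Vdac3 at 0.13 (SE 0.04, adjusted p = 0.20) and Chchd3 at 0.13 (SE 0.05, adjusted p = 0.36). In Psmb5 against mSc cultures the medians of the 7 lists other than the mitochondrially encoded subunits lay between -0.007 (import) and 0.043 (cristae).

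Transcript properties were compared because many members are short. Their median exonic length was 1718 bases, against 4261 over all genes tested, while median GC content was alike at 50.5% and 50.2%. In Psmb8 against mSc cultures the median log2 fold change was 0.046 over the 18 members under 1 kb. It was 0.049 over the 63 longer ones. Over all genes tested of those classes the medians were -0.023 and 0.002. In Psmb8 against Psmb5 they were 0.071 and 0.041 over the members, against 0.0009 and -0.0000 over all genes tested. In Psmb5 against mSc they were -0.0002 and 0.0036 over the members, against -0.0233 and 0.0024. Across members, Spearman's rho of the log2 fold change with GC content was -0.156 in Psmb8 against mSc and -0.400 in Psmb5 against mSc. It was 0.216 in Psmb8 against Psmb5. Across all genes tested these were -0.102, -0.182 and 0.067. With exonic length, rho across members was -0.117, 0.170 and -0.284 in the same order, against -0.014, 0.054 and -0.074 across all genes tested. Genes are not independent in these correlations. Of the 81 members, 25 share exonic bases of the principal transcript with another annotated gene, from 0.777% in Ndufa3 to 48.6% in Atp5o, with 41.7% in Cox5a. In Atp5o the overlap includes another ID of the same symbol on the same strand. How reads in shared bases were counted is not known. Counts of these members may therefore include reads of a neighbour or lack reads of their own.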

How the data were processed

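Raw read counts per Ensembl gene were deposited by the authors as 1 table of 43629 IDs and 18 libraries. The submitters' processing notes name STAR 2.4, DESeq2, GRCm39 and mm10 with no roles; the counter and its strand setting are not known here. Symbols, coordinates and lengths are GENCODE's for GRCm38 (42462 IDs named).

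Counts were tested with edgeR 4.0.16 (R 4.3.3) in 1 fit of all libraries: filterByExpr by group (15671 genes, all 81 members among them), TMM scaling, group plus replicate number as a block, the quasi-likelihood test and Benjamini-Hochberg adjustment over all genes at 0.05. SEs come from the F statistic, and CPM use TMM-scaled counts of tested genes. The fit was also run on simulated counts, with changes larger than the median difference of the members. That run therefore does not measure the power to detect differences as small as theirs. Totals of 15337511 to 21074229 counts gave the members SEs of 0.030 to 0.129 in log2.

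The members, lists and tests were chosen with earlier results of these data known. Groups were paired by the replicate number in the titles, whose meaning is unstated. In deviations from group means, 18 same-numbered pairs correlated at 0.430 to 0.718 (mean 0.591), and the 90 pairs of unlike number averaged -0.117. The block lowered the biological coefficient of variation to 5.94%, against 17.9% without it. No 2 libraries of a group agreed within sampling noise (chi-square per degree of freedom 2.91 to 37.8 over 45 pairs).

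Members were named as, per comparison and complex, the 2 highest and the lowest log2 fold change, then Cycs, Cyc1, the highest and lowest level per length and isoform pairs, and of other lists the gene with the smallest p. Members picked by an unadjusted p under 0.05 or by agreement of all 6 pairs, and other values outside this rule, were named after their values were seen. Alternatives were DESeq2 1.42.0, limma-voom (limma 3.58.1), DESeq2's size factors, other filters, 2-group fits, library sizes without Psmb5 and Psmb8, no block, GC or length trends removed, and numbers left out. Motifs were counted on both strands. Values of 1 member are not reported here singly or drawn; it stays in the fits, counts and medians.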

Additional observations from a re-analysis of the deposited data

Results flagged for a closer look

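A library whose level stood apart from the other 5 of its group by Dixon's test was found in 6 of 150 sets of 6 libraries screened; chance gives about 1 in 20. In Psmb8 library 1, Cox4i1 stood at 322.6 CPM against 247 to 268 CPM in the other Psmb8 libraries, Cox6b1 at 131.8 against 88.9 to 104.5 CPM, and Ndufb11 at 49.28 against 35.4 to 39.2 CPM. In mSc library 1, Cox6b1 stood at 123.8 CPM against 95.7 to 105.5 CPM. These 4 are libraries numbered 1, which had the highest astrocyte markers of each group. In Psmb5 library 4, Ndufa1 stood at 22.62 CPM against 16.5 to 18.2 CPM, and in Psmb5 library 5, Cyc1 at 135.4 CPM against 113 to 117 CPM. The cause of these values was not tested.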

How the results depend on the processing

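Of 190 recomputed summary values, 185 stayed within the limits set, and 5 changed. For medians and list means the limit was the SD of the pair differences, and the sign was not checked. In Psmb5 against mSc (SD 0.0463) the median of 0.0033 became -0.0035 without number 1 and -0.0055 without number 6. In Psmb8 against Psmb5 (SD 0.0632) the median of 0.0465 fell to 0.0136 without numbers 1 and 2. These values counted as within the limit. In Psmb8 against mSc, 2 members were called higher without a low-count filter (Cycs, adjusted p = 0.00078, and Ndufa11, 0.039), 1 with DESeq2 (Cycs, 0.018) and 1 with the GC trend removed (Ndufa11, 0.050), against 0 in edgeR; the causes were not tested. In Psmb5 against mSc, 0 members were higher in 6 of 6 pairs with DESeq2's size factors and 0 without a low-count filter, against 1. Without the replicate block no member was called in any comparison, and the medians were 0.0504 (Psmb8 against mSc), 0.0037 (Psmb5 against mSc) and 0.0460 (Psmb8 against Psmb5), so the block changed no call. With 1 replicate number left out in turn the medians ranged from 0.0335 to 0.0566, from -0.0055 to 0.0213 and from 0.0248 to 0.0575 in the same order. The list without -ps symbols, Atp5if1 and Ndufa4l2 equals the list used, since no member bears those names. Leaving out numbers 1 and 2 together, and leaving out Atp5s and Cox7a2l, were alternatives chosen after seeing the data. Of 1152 values of single members, 1116 kept direction and call, 4 passed the threshold and 32, all close to 0, changed sign. In Psmb8 against mSc these were Atp5g2 at 0.002 with the GC trend removed, Ndufa6 at 0.008 to 0.014 without 1 number, and Sdhc at -0.001 without a filter, -0.014 without numbers 3 and 6 and -0.016, -0.006 and -0.000 without 1 number. In Psmb5 against mSc they were Sdhb at -0.010 without numbers 3 and 6, -0.004 without 1 and 2 and -0.009 to -0.002 without 1 number, Sdhc at -0.020 without 3 and 6, and Uqcr11 at 0.001 without number 2. In Psmb8 against Psmb5 they were Atp5s at -0.001 without the block, -0.005 without a filter, -0.003 with limma-voom, -0.000 in the 2-group fit, -0.023 without 3 and 6, -0.010 with the length trend removed and -0.061, -0.012 and -0.006 without 1 number; Cyc1 at -0.018 without 1 and 2; Ndufb11 at 0.015 without number 4; Sdhc at 0.006 without 3 and 6; and Uqcrc2 at 0.023 without 3 and 6, 0.015 without 1 and 2 and 0.027, 0.012 and 0.002 without 1 number. The cause of these changes was not tested.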
